A study of Rattus norvegicus with 6 samples.

Results

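The genes described here are 40 genes of DNA replication and deoxynucleotide supply, taken by name from 33300 rows of a table of rat gene expression, with exactly 1 row each. Together they encode the origin licensing factors, the replicative helicase and its activators, the DNA polymerases with their sliding clamp, the enzymes that make deoxynucleotides, and factors that rebuild chromatin behind the fork. The cells were tendon stem/progenitor cells of the rat, which the labels also call mesenchymal stem cells and place under tenogenic differentiation, and their RNA was sequenced. The 3 NAC libraries came from cells kept for 7 days in F12 medium to which 500 uM N-acetyl-L-cysteine, a cysteine donor and antioxidant, had been added, and the 3 Control libraries from cells kept as long in F12 medium alone. Values are FPKM, read counts scaled to gene length and to a library total. The NAC libraries held 13624097 to 14941949 reads and the Control libraries 12487215 to 14079556 reads, as recovered from the deposited values. Whether replicate libraries stem from separate cultures or animals is not stated in the labels, so the p-values speak only of the spread among the 6 libraries, which may be technical.

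The libraries held RNA of the listed tendon genes, at very different levels. The summed FPKM of 9 of 9 tendon genes was 14083 to 14848 in NAC and 9426 to 9807 in Control, mostly from the matrix genes Col1a1 and Dcn. Tnmd, also on the list, was low, with 2.55 ± 0.537 FPKM in NAC and 1.41 ± 0.369 FPKM in Control (SD, n = 3 each), from 18 to 52 reads per library. Called higher with NAC were 4 of the 9 tendon genes and called lower 0, against 6.08% and 2.72% of all tested genes. They were Col1a1, Col3a1, Dcn and Tnc, with log2 fold changes of 0.997, 0.33, 0.32 and 0.67. The tendon transcription factors of that list were not called. Scx averaged 11.6 ± 0.700 FPKM in NAC and 12.5 ± 1.30 FPKM in Control (SD, n = 3 each). Mkx averaged 3.90 ± 1.07 FPKM in NAC and 5.28 ± 0.394 FPKM in Control. Several defining markers of other cells were listed at 0 in all 6 libraries, namely Ptprc and Cd3e of leukocytes, Cdh5 and Emcn of endothelium and Krt5, Krt14 and Krt18 of epithelium. The leukocyte list (8 of 8 genes found) summed to 24.2 to 25.6 FPKM in NAC and 23.2 to 26.3 FPKM in Control, the endothelial list (5 of 6 found) to 0.668 to 0.749 and 0.368 to 0.7498 FPKM, and the epithelial list (5 of 5) to at most 0.101 and 0.0165 FPKM. The leukocyte sum rested on genes that were present, which were Cd14 (15.3 ± 1.68 FPKM in NAC and 14.04 ± 0.400 FPKM in Control), Lyz2 (5.27 ± 1.10 and 5.59 ± 0.972 FPKM) and Cd68 (4.33 ± 0.717 and 5.18 ± 1.61 FPKM). The muscle list (6 of 6) summed to 19.3 to 22.4 FPKM in NAC, against 23.9 to 26.2 FPKM in Control, without overlap. Most of that sum came from Myh11, a smooth muscle myosin called lower with NAC, as were 2.72% of all tested genes. It averaged 17.2 ± 1.40 FPKM in NAC and 21.9 ± 0.486 FPKM in Control (log2 fold change -0.33, limma adjusted p = 0.0269). The part of other cell types in the results was not tested. In bulk RNA, a change in the share of cells in S phase and a change in RNA of a replication gene per cell cannot be told apart.

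As background, origins are licensed in G1, when the origin recognition complex with CDC6 and CDT1 loads the ring-shaped MCM helicase onto DNA. In S phase CDC45 and the GINS complex join the ring and make it an active helicase, and the polymerases follow it. Most of these genes are induced at the G1 to S boundary by E2F transcription factors, so their RNA is commonly read as a sign of proliferation, and ribonucleotide reductase and thymidine kinase are classical examples.

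With NAC, 4 of these genes rose, and they came from 2 roles. Rrm2 and Tk1 supply deoxynucleotides, and Mcm3 and Mcm5 encode subunits of the helicase. None of those tested fell. The test was run on genes with a mean of at least 1 FPKM over the 6 libraries, which 36 of the 40 reached, and used limma on log2(FPKM + 1) with Benjamini-Hochberg adjustment over all 12733 such genes. A gene was called at an adjusted p under 0.05. Among all tested genes 6.08% were called higher and 2.72% lower with NAC, together 8.80%, against 4 and 0 of these 36. The 9561 tested genes within the same range of mean FPKM, 1.01 to 24.1, had 3.48% called higher. The log2 fold change was above 0 in 32 of the 36 (48.5% of all tested genes), with a median of 0.13, against -0.0063 over all tested genes. The 3 NAC values lay above the 3 Control values in 16 of the 36 and below them in 1, whereas in all tested genes the shares were 16.7% and 15.9%. An unadjusted p under 0.05 was reached by 14 of the 36, each with a positive fold change, and by 14.4% of all tested genes in that direction. Without NAC 1 or without Control 1 the count of calls was 2, which were Rrm2 and Tk1. When FPKM were scaled to library totals, the median of all tested genes moved to -0.16 and that of the replication genes to -0.0040, with 18 of 36 above 0 and 33 of 36 above the median of all, and the same 4 genes were called.

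**Figure D1:**
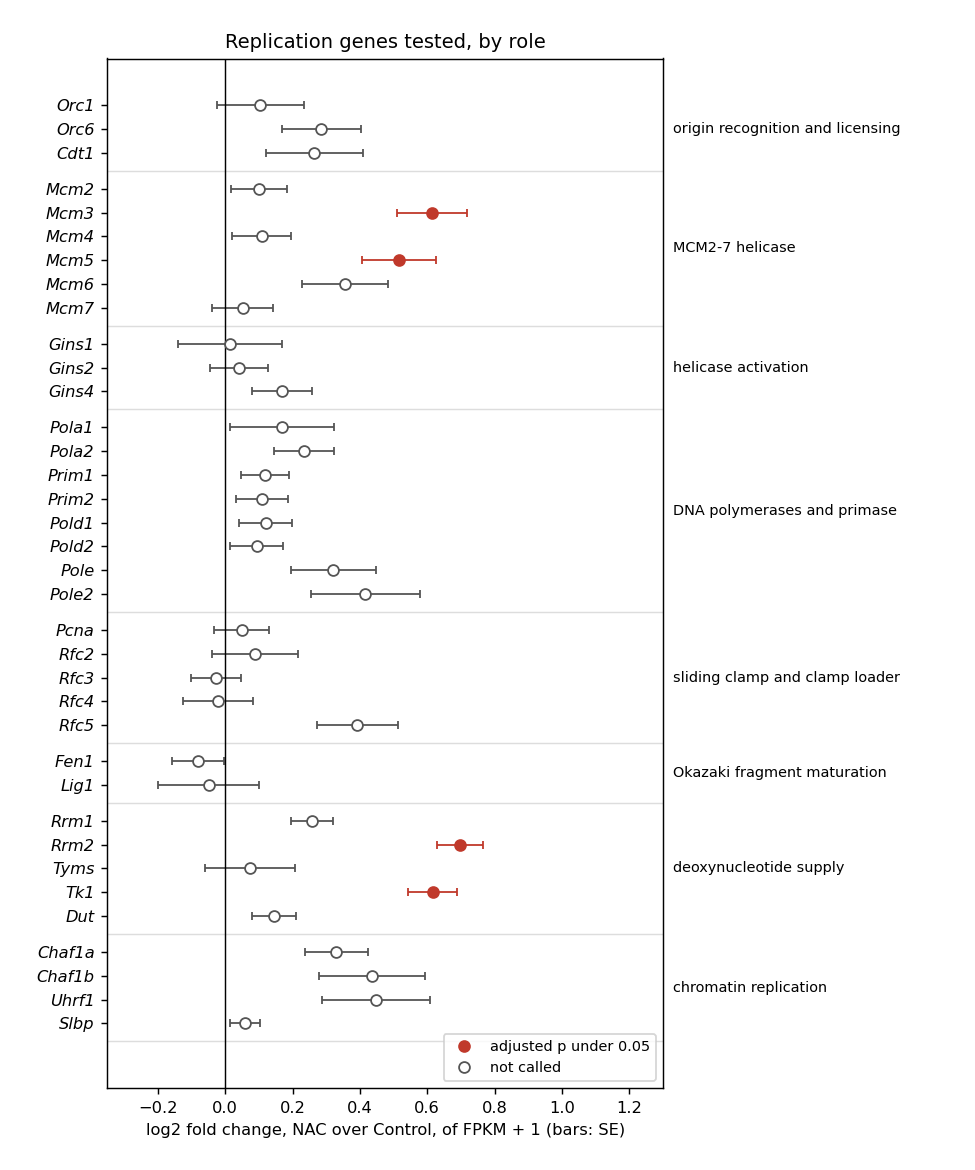
Log2 fold change of FPKM + 1 in NAC over Control (x axis) for the 36 replication genes tested, grouped by role down the page. Bars are the SE from limma, filled points have an adjusted p under 0.05, and the 4 filled points lie in the helicase and the deoxynucleotide supply.

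The licensing genes were expressed at low levels and none was called. Orc6, a small subunit of the origin recognition complex, had 3.55, 2.82 and 2.68 FPKM in NAC 1, 2 and 3, against 2.50, 2.03 and 2.34 FPKM in Control 1, 2 and 3. Its groups did not overlap, but the log2 fold change of 0.29 ± 0.118 (SE) had a limma adjusted p of 0.183. Orc1, the large ATPase subunit of the same complex, averaged 1.29 ± 0.0718 FPKM in NAC and 1.13 ± 0.194 FPKM in Control (SD, n = 3 each), and these ranges overlapped. Cdt1, the loader that brings the helicase to the origin, averaged 3.50 ± 0.584 FPKM in NAC and 2.75 ± 0.546 FPKM in Control (limma adjusted p = 0.297). Cdc6, its partner, stayed under the filter with 0.771 ± 0.175 FPKM in NAC and 0.542 ± 0.165 FPKM in Control, from 15 to 40 reads per library.

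Within the MCM ring, Mcm3 and Mcm5 rose and the other subunits did not pass. Mcm3 (ENSRNOG00000012543; chromosome 9, 26914057 to 26932201) had 7.46, 6.05 and 6.04 FPKM in NAC 1, 2 and 3, against 3.59, 3.72 and 4.39 FPKM in Control 1, 2 and 3. Every NAC library stood above every Control library, with NAC 1 the highest. The ratio of mean FPKM was 1.67 and the log2 fold change 0.61 ± 0.105 (SE, limma adjusted p = 0.0187), a call lost without NAC 1, NAC 2 or Control 1 (0.53 to 0.66). Over all alternatives the log2 fold change of Mcm3 ranged from 0.47 to 0.73. Mcm5 (ENSRNOG00000014336; chromosome 19, 14523554 to 14561278) had 4.54, 3.91 and 3.84 FPKM in NAC, against 2.16, 2.71 and 2.84 FPKM in Control. Its groups were separate too, and the ratio of means was 1.59 (log2 fold change 0.52 ± 0.109, SE, limma adjusted p = 0.0352). This call did not survive the removal of any single library (0.43 to 0.57) or of the filter (log2 fold change 0.38 to 0.68 and adjusted p 0.0106 to 0.113 over all alternatives). The sources used here do not name the genome build of the deposited coordinates.

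Mcm6 showed separate groups without a call. It had 7.75, 5.25 and 6.29 FPKM in NAC 1, 2 and 3 and 4.58, 4.50 and 5.19 FPKM in Control 1, 2 and 3, and NAC 2 lay just above the highest Control library (log2 fold change 0.36 ± 0.128, SE, limma adjusted p = 0.139). The value was 0.23 without NAC 1 and 0.21 with library totals. Mcm2, Mcm4 and Mcm7 overlapped between the groups. Mcm2 averaged 9.33 ± 0.949 FPKM in NAC and 8.61 ± 0.468 FPKM in Control (SD, n = 3 each), and Mcm4 9.06 ± 1.00 and 8.32 ± 0.580 FPKM. Mcm7, whose introns hold the microRNA genes Mir25, Mir93 and Mir106b, averaged 7.39 ± 0.635 FPKM in NAC and 7.10 ± 0.698 FPKM in Control. The 95% intervals of these log2 fold changes ran from -0.096 to 0.30 for Mcm2, from -0.10 to 0.32 for Mcm4 and from -0.16 to 0.27 for Mcm7. Values for this trio turned negative with library totals (-0.057, -0.048 and -0.10).

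In the assembled ring each subunit is present once, and the spread of RNA levels per length among subunits was narrower in each NAC library than in each Control library. Mcm5 was the lowest subunit in all 6 libraries, and the highest was Mcm2 or Mcm4. The highest level was 2.25, 2.14 and 2.54 times the lowest in NAC 1, 2 and 3, against 3.86, 3.38 and 3.14 times in Control 1, 2 and 3. These ratios did not overlap. Each is taken over Mcm5, which was already called, so they are not a result separate from that call. As they were chosen after the values were seen they carry no test.

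**Figure D2:**
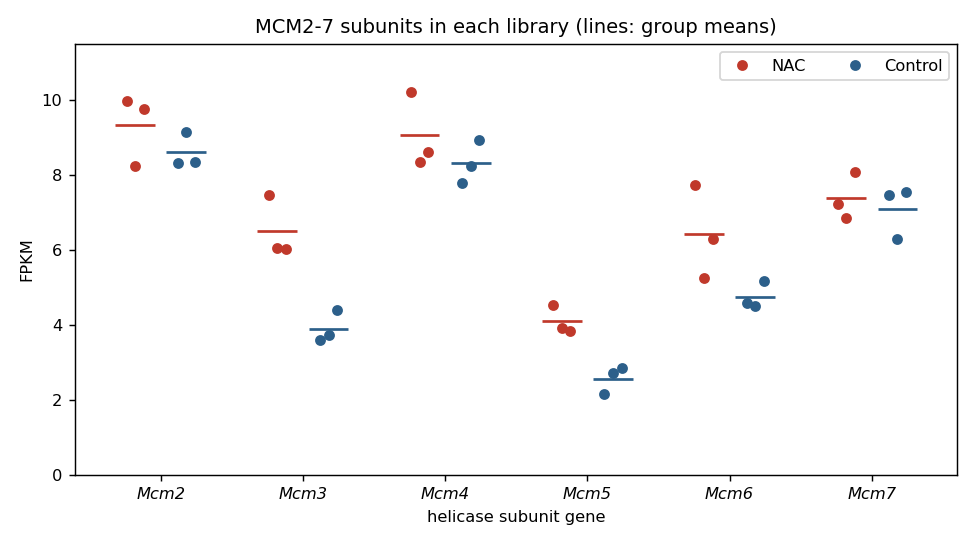
FPKM (y axis) of the MCM helicase subunit genes (x axis) in each of 3 NAC and 3 Control libraries, with lines at the group means. Mcm3, Mcm5 and Mcm6 have NAC points that all lie above the Control points, and Mcm2, Mcm4 and Mcm7 overlap.

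The start regions of the MCM genes are printed because E2F factors are known regulators of these genes, of which some were called and others were not. The sequences are the RefSeq windows of build GRCr8, each from 250 bases before to 50 bases after the annotated gene start and written 5′ to 3′ on the gene's own strand. They lie at chr4:122918045-122918344 (minus strand), chr9:30733697-30733996 (minus), chr19:13488563-13488862 (plus), chr13:42404303-42404602 (minus) and chr12:22163129-22163428 (minus). Tk1 at chr10:103544728-103545027 (minus) is added as a called gene of another role. Capitals mark words of the E2F motif, searched on both strands as TTTCCCGC, TTTGGCGC, TTTGCCGC or TTTCGCGC, and adjacent capitals can be overlapping words on opposite strands.
Mcm2: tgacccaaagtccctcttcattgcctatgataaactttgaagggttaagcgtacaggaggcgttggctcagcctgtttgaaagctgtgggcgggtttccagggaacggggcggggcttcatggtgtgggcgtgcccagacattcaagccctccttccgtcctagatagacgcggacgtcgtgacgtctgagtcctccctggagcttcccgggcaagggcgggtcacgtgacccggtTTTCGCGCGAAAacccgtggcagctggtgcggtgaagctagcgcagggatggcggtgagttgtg
Mcm3: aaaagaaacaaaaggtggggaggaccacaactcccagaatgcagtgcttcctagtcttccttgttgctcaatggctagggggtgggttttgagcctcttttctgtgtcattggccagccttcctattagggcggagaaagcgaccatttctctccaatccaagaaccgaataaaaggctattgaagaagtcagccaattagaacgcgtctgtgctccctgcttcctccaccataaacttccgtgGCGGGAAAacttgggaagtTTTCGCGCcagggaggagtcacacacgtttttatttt
Mcm5: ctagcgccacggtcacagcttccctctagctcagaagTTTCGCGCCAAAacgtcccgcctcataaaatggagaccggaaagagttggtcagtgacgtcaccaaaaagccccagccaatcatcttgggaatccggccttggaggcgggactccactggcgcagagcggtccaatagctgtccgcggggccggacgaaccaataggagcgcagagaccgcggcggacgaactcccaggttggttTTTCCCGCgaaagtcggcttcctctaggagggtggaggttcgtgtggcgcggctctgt
Mcm6: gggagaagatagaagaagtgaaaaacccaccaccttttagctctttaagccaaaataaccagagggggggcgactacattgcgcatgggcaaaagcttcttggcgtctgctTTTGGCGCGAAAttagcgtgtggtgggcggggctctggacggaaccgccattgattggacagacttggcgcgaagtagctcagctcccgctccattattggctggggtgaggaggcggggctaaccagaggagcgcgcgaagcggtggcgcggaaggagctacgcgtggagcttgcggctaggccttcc
Mcm7: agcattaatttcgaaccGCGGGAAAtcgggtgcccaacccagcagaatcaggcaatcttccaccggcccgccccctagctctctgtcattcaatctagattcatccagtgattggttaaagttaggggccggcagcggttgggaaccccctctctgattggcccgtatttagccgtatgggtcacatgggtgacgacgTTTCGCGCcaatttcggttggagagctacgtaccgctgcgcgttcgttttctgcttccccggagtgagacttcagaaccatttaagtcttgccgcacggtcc
Tk1: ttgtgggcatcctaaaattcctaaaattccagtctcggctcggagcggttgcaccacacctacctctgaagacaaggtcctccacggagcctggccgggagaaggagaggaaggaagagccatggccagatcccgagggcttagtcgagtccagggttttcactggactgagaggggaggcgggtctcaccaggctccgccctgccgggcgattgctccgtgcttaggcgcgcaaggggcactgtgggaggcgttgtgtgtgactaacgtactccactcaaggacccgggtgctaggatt
Each of the 5 MCM windows held 2 or 3 E2F words, in called and uncalled genes alike, and the Tk1 window held none of these words.

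Windows were found for 35 of the 40 genes, all but Orc1, Cdc6, Mcm4, Gins4 and Rrm2, with more than 1 window for Dut and Uhrf1, and 16 of the 35 (45.7%) held an E2F word in at least 1 window. Among the 27457 genes with a window the share was 2.37%, and among the 8334 of them tested here 4.14%. Of the 26 words, 17 had their middle within 50 bases of the gene start. The CCAAT box, bound by NF-Y and searched as CCAAT on both strands, stood in 20 of the 35 (57.1%), against 39.6% of all genes with a window, and 1 of the E2F words overlapped such a box. Of the genes tested, 2 of 15 with an E2F word and 1 of 17 without it were called, against 6.08% of all tested genes called higher. The NAC values lay above all Control values in 7 of the 15 and 7 of the 17, against 16.7% of all. The median log2 fold changes were 0.17 and 0.12, and the difference was not tested. A word in a window is a match of letters and not a measured binding site.

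**Figure D3:**
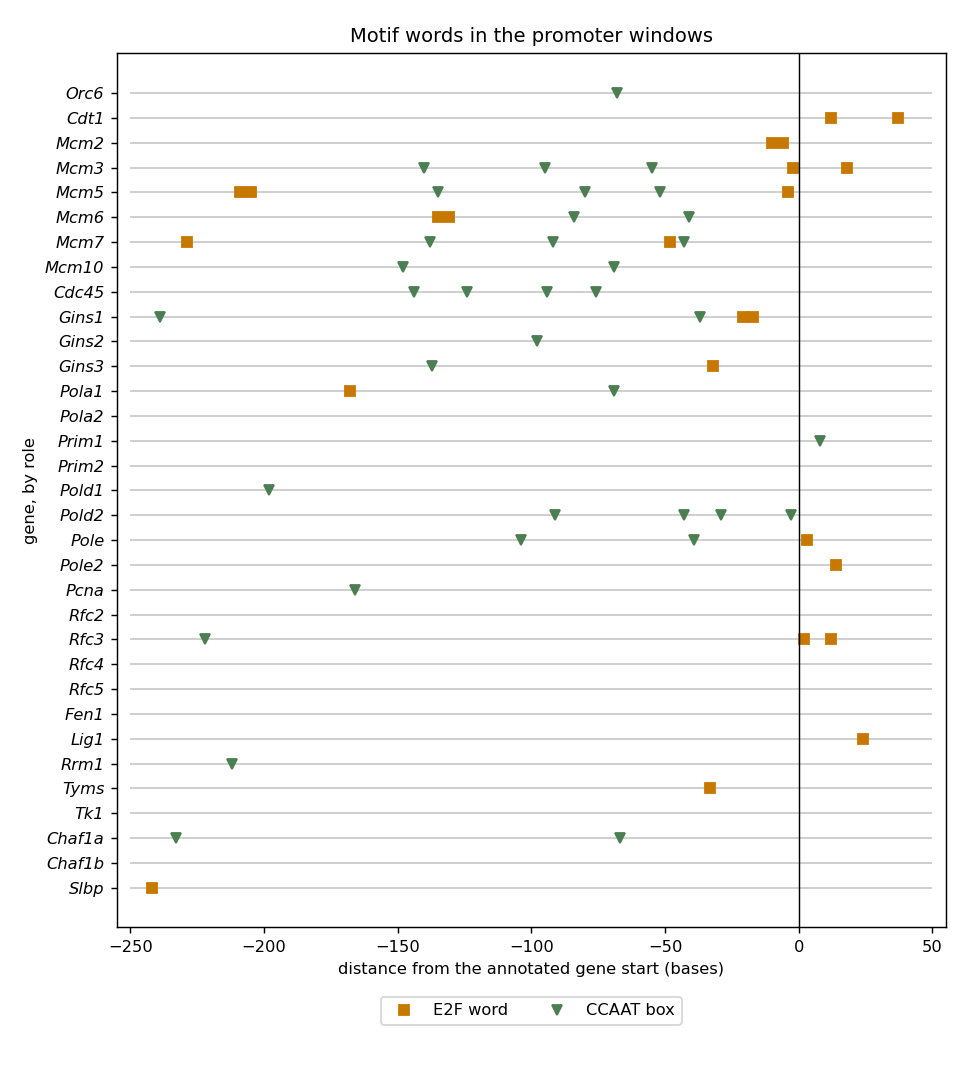
Position of E2F words (squares) and CCAAT boxes (triangles) relative to the annotated gene start (x axis, bases) in the windows of 33 replication genes with a single window, by role down the page. The words of Mcm2, Mcm3, Gins1, Pole and Rfc3 lie near the start, and those of Mcm6 and Pola1 lie farther upstream.

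The helicase activators Mcm10 and Cdc45 showed separate groups at levels too low for the filter. Mcm10, which helps to activate the loaded helicase, had 0.963, 0.890 and 1.35 FPKM in NAC 1, 2 and 3, against 0.317, 0.467 and 0.540 FPKM in Control 1, 2 and 3. Cdc45, a component of the active helicase, had 0.518, 0.564 and 0.497 FPKM in NAC and 0.227, 0.332 and 0.288 FPKM in Control. In both genes every NAC library stood above every Control library. They rested on 213 reads over the NAC libraries and 92 over the Control libraries for Mcm10, and on 134 and 74 reads for Cdc45. In a fit without a filter, which called 2.75% of 19944 genes higher, the log2 fold change was 0.52 ± 0.115 for Mcm10 (SE, limma adjusted p = 0.0737) and 0.25 ± 0.0579 for Cdc45 (SE, limma adjusted p = 0.0794). The ratio of mean FPKM, which the added 1 does not shrink, was 2.42 for Mcm10 and 1.86 for Cdc45.

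The GINS subunits, which join the helicase with Cdc45, gave no call. Gins4 had 3.07, 3.49 and 3.01 FPKM in NAC 1, 2 and 3, against 2.68, 2.90 and 2.58 FPKM in Control 1, 2 and 3, with separate groups and a limma adjusted p of 0.283. Gins1 averaged 1.88 ± 0.437 FPKM in NAC and 1.84 ± 0.313 FPKM in Control, and Gins2 3.93 ± 0.316 and 3.79 ± 0.280 FPKM (SD, n = 3 each). Gins3, under the filter, averaged 0.752 ± 0.282 FPKM in NAC and 0.657 ± 0.372 FPKM in Control from 13 to 38 reads per library. The log2 fold changes of Gins1 and Gins2 turned negative with library totals (-0.099 and -0.098).

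All 8 genes of the polymerases and primase had positive log2 fold changes between 0.094 and 0.42, and none was called. With library totals those of Pold1, Pold2, Prim1 and Prim2 turned negative. Pole, the catalytic subunit of the leading-strand polymerase epsilon, had 1.19, 1.22 and 1.27 FPKM in NAC 1, 2 and 3, against 0.879, 0.719 and 0.758 FPKM in Control 1, 2 and 3. The NAC libraries lay close together and above all Control libraries (ratio of means 1.57, log2 fold change 0.32 ± 0.125, SE, limma adjusted p = 0.163). It was called by limma without a trend (adjusted p = 0.0292) and by limma voom on the recovered reads (log2 fold change 0.64, adjusted p = 0.0117). Its accessory subunit Pole2 had 1.69, 1.04 and 1.36 FPKM in NAC and 0.642, 0.973 and 0.683 FPKM in Control, from 53 reads over the Control libraries (limma adjusted p = 0.162).

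The polymerase alpha and primase genes begin each new strand. Pola2, the accessory subunit of polymerase alpha, had 4.16, 4.38 and 5.03 FPKM in NAC 1, 2 and 3, against 3.72, 3.43 and 3.93 FPKM in Control 1, 2 and 3, and its groups did not overlap (log2 fold change 0.23 ± 0.0894, SE, limma adjusted p = 0.157). It overlaps Cdc42ep2 in the deposited coordinates, so their reads may not be told apart. The catalytic subunit Pola1 averaged 1.49 ± 0.353 FPKM in NAC and 1.20 ± 0.209 FPKM in Control (SD, n = 3 each). The primase subunits Prim1 and Prim2 averaged 8.93 ± 0.383 and 4.58 ± 0.345 FPKM in NAC and 8.16 ± 0.655 and 4.17 ± 0.179 FPKM in Control. Pold1, the catalytic subunit of the lagging-strand polymerase delta, averaged 3.99 ± 0.231 FPKM in NAC and 3.59 ± 0.203 FPKM in Control, and its partner Pold2 11.8 ± 0.742 and 10.99 ± 1.02 FPKM. Pold2 overlaps the abundant gene Aebp1 on the other strand by 13 bases.

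The sliding clamp did not change detectably. Pcna, the ring that tethers polymerases to DNA and the most abundant of the genes, had 23.5, 24.995 and 25.04 FPKM in NAC 1, 2 and 3, against 26.5, 21.2 and 23.5 FPKM in Control 1, 2 and 3. The Control libraries held both the highest and the lowest value. The log2 fold change was 0.049 ± 0.081 (SE, limma adjusted p = 0.748), with a 95% interval from -0.14 to 0.24, and it turned to -0.12 with library totals. Of the clamp loader genes, Rfc5 had 3.59, 2.95 and 3.34 FPKM in NAC, against 2.36, 2.63 and 1.86 FPKM in Control, with separate groups (0.39 ± 0.120, SE, limma adjusted p = 0.0945). Rfc2 averaged 7.23 ± 1.37 FPKM in NAC and 6.67 ± 0.426 FPKM in Control, Rfc3 3.58 ± 0.146 and 3.67 ± 0.175 FPKM, and Rfc4 5.83 ± 0.688 and 5.93 ± 0.616 FPKM (SD, n = 3 each), all overlapping between the groups.

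The genes that finish Okazaki fragments, the short pieces of the lagging strand, had negative log2 fold changes that were not called. Fen1, the flap endonuclease, had 3.08, 2.88 and 3.07 FPKM in NAC 1, 2 and 3, against 3.14, 3.22 and 3.36 FPKM in Control 1, 2 and 3. It was the 1 gene of the 40 whose NAC values all lay below the Control values, by a small margin (-0.080 ± 0.0772, SE, limma adjusted p = 0.559). Lig1, the ligase that seals the fragments, averaged 1.57 ± 0.397 FPKM in NAC and 1.64 ± 0.209 FPKM in Control, and its ranges overlapped.

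Deoxynucleotide supply held the calls with the lowest adjusted p. Rrm2 (ENSRNOG00000054286; chromosome 6, 43884678 to 43889515), the S phase subunit of ribonucleotide reductase, had 21.2, 23.2 and 21.2 FPKM in NAC 1, 2 and 3, against 13.9, 13.5 and 12.02 FPKM in Control 1, 2 and 3. The gap between the groups was wider than the spread in either, and the ratio of means was 1.67 (log2 fold change 0.70 ± 0.0677, SE, limma adjusted p = 0.00262). Tk1 (ENSRNOG00000047314; chromosome 10, 106817601 to 106828884), the thymidine kinase of the salvage pathway, had 7.14, 6.34 and 6.87 FPKM in NAC, against 4.06, 3.86 and 4.30 FPKM in Control. Its groups were as clearly apart (ratio 1.66, 0.62 ± 0.0722, SE, limma adjusted p = 0.00490). Both calls held under each of 18 other settings, with adjusted p up to 0.0187 for Rrm2 and 0.0314 for Tk1. The log2 fold change ranged from 0.53 to 0.74 for Rrm2 and from 0.47 to 0.73 for Tk1 over the settings.

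A second row of the table, LOC100359539 on chromosome 19, is annotated as the same reductase subunit, and the authors' counting may have split reads between it and Rrm2. It had 6.78, 5.67 and 7.56 FPKM in NAC 1, 2 and 3, against 3.01, 4.01 and 4.61 FPKM in Control 1, 2 and 3, again with every NAC library higher (0.66 ± 0.147, SE, limma adjusted p = 0.0414). With both rows summed, an alternative chosen after the data were seen, the log2 fold change of Rrm2 was 0.72 ± 0.0415 (SE, limma adjusted p = 5.03e-04).

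Rrm1, the large subunit of the same enzyme, came close to the threshold. It had 19.3, 17.1 and 19.8 FPKM in NAC 1, 2 and 3, against 15.7, 15.8 and 15.01 FPKM in Control 1, 2 and 3, with separate groups (0.26 ± 0.0633, SE, limma adjusted p = 0.0535). It was called without NAC 2 (0.32, adjusted p = 0.0484), at a mean FPKM of at least 5, among protein-coding genes only and by limma voom (adjusted p 0.0261 to 0.307 over its alternatives). The level of Rrm2 was 1.10, 1.36 and 1.07 times that of Rrm1 in NAC 1, 2 and 3, against 0.886, 0.854 and 0.801 times in Control 1, 2 and 3, a ratio chosen after the values were seen. Tyms, which makes thymidylate from deoxyuridylate, averaged 5.08 ± 0.317 FPKM in NAC and 4.84 ± 1.06 FPKM in Control (SD, n = 3 each), where Control 2 was the highest of the 6 libraries. Dut, which breaks down dUTP, averaged 20.3 ± 1.30 FPKM in NAC and 18.3 ± 1.03 FPKM in Control (limma adjusted p = 0.208). The log2 fold changes of Tyms and Dut turned negative with library totals (-0.071 and -0.020).

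**Figure D4:**
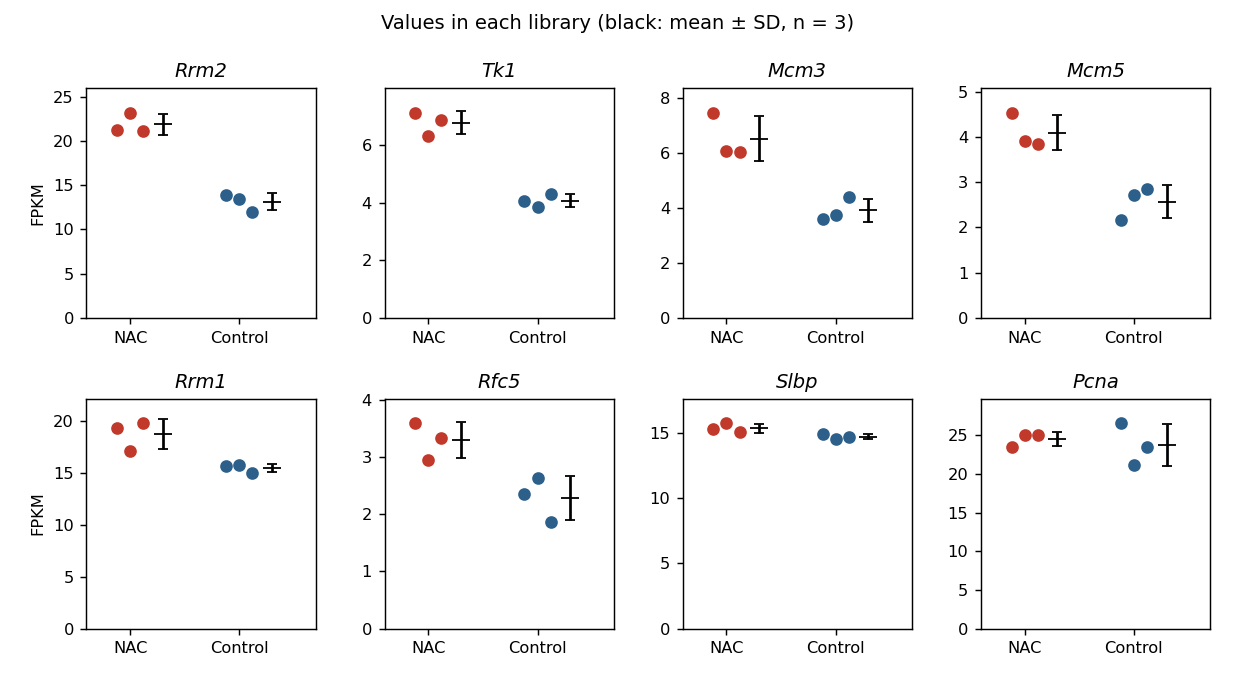
FPKM (y axes, from 0) in each NAC and Control library for Rrm2, Tk1, Mcm3 and Mcm5, which were called, and for Rrm1, Rfc5, Slbp and Pcna, which were not. Black marks are the mean ± SD of 3 libraries, and the gap between groups is widest against the spread in Rrm2 and Tk1, while the Pcna points overlap.

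The 4 genes of chromatin replication all had separate groups with NAC above Control (16.7% of all tested genes), and none was called higher (6.08% of all). Chaf1a, the large subunit of the histone chaperone CAF-1, had 3.59, 3.27 and 3.47 FPKM in NAC 1, 2 and 3, against 2.24, 2.61 and 2.78 FPKM in Control 1, 2 and 3 (log2 fold change 0.33 ± 0.0934, SE, limma adjusted p = 0.0782). It was called by limma voom (adjusted p = 0.0445). Its partner Chaf1b had 2.24, 1.56 and 1.56 FPKM in NAC and 0.821, 1.04 and 1.31 FPKM in Control (0.44 ± 0.157, SE, limma adjusted p = 0.139). Uhrf1, which guides maintenance DNA methylation to new DNA, had 2.79, 3.38 and 3.23 FPKM in NAC, against 1.39, 2.44 and 2.35 FPKM in Control, and Control 1 was well below the rest (0.45 ± 0.160, SE, limma adjusted p = 0.136).

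Slbp, which binds the stem-loop of replication-dependent histone mRNAs, showed the smallest change of that role. It had 15.3, 15.7 and 15.05 FPKM in NAC 1, 2 and 3, against 14.9, 14.5 and 14.7 FPKM in Control 1, 2 and 3 (log2 fold change 0.059 ± 0.0436, SE, limma adjusted p = 0.443). Its groups were separate by a narrow margin, and the value turned to -0.10 with library totals.

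The pattern across the 36 tested genes was shared by the libraries of a group. The median deviation of a gene from its own mean over the 6 libraries was 0.10, 0.079 and 0.13 on the log2 scale in NAC 1, 2 and 3, against -0.095, -0.11 and -0.070 in Control 1, 2 and 3. Over all tested genes the same medians lay between -0.0012 and 0.0050. NAC 1, 2 and 3 held the highest value of 14, 9 and 8 of the 36 genes, and Control 1, 2 and 3 that of 2, 2 and 1. Over all genes Control 2 differed more from Control 1 and Control 3 (chi-square per degree of freedom 8.71 and 8.54) than these from each other (3.49), and in the medians above it was the lowest library. The FPKM of all 40 genes summed to 246 ± 2.39 in NAC and 208 ± 2.51 in Control (SD, n = 3 each). Most of that gap went with the authors' divisors: scaled to library totals, the sums were 225.8, 221 and 229 in NAC 1, 2 and 3, against 219, 209.6 and 218 in Control 1, 2 and 3 (means 225 ± 3.80 and 215 ± 4.96). The groups stayed apart by a narrow margin.

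**Figure D5:**
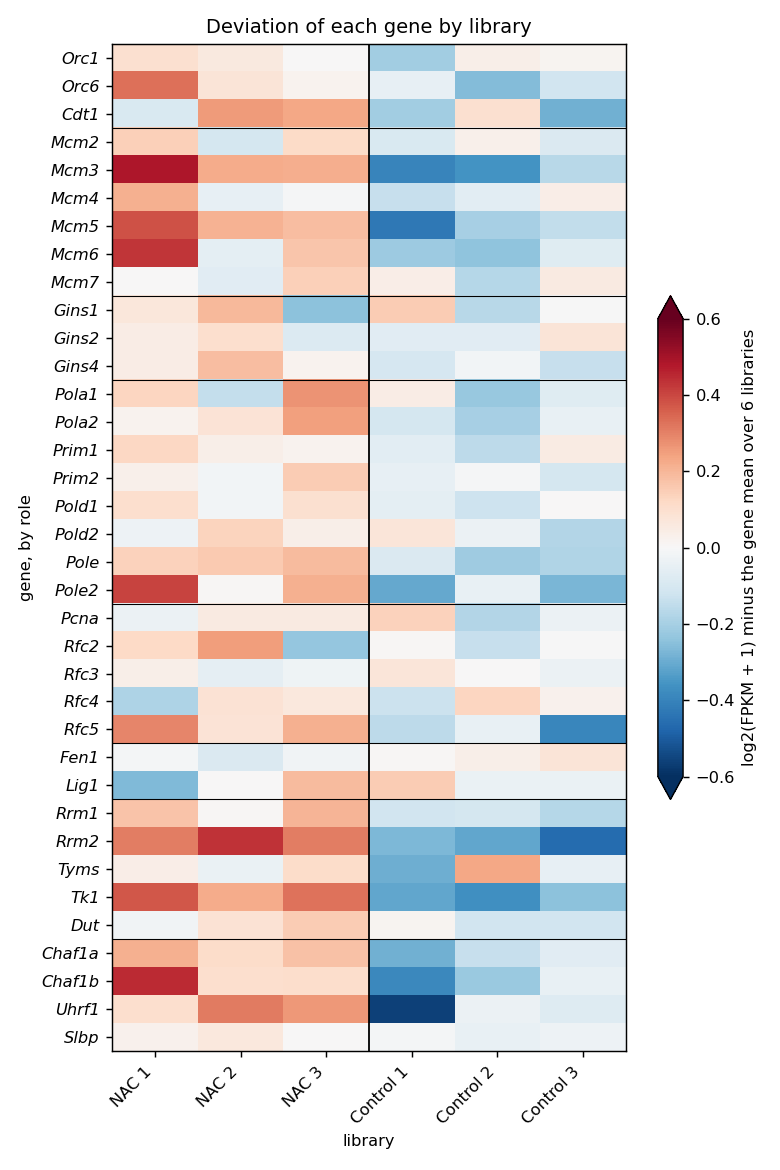
Deviation of log2(FPKM + 1) from the gene's mean over 6 libraries (colour) for the 36 tested genes (rows, by role) in 3 NAC and 3 Control libraries (columns). Rrm2, Tk1, Mcm3 and Mcm5 are red in all NAC columns and blue in all Control columns, and rows such as Pcna, Rfc4 and Lig1 are mixed.

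Further genes of replication and nucleotide metabolism, 96 in 6 lists, were called about as often as all tested genes. Of 79 tested, 5 were higher (6.33%, against 6.08% of all) and 2 lower (2.72% of all) with NAC, and the median log2 fold change was 0.042. Among 9 tested origin and licensing genes 1 rose (median -0.028). This was Gmnn, the inhibitor of Cdt1, with 4.26 ± 0.477 FPKM in NAC and 2.64 ± 0.0716 FPKM in Control (SD, n = 3 each; limma adjusted p = 0.0190), a call lost without NAC 1, NAC 2, Control 1 or Control 3 (0.46 to 0.57). Of 19 fork genes 2 rose (median 0.090): Top2a, the topoisomerase that untangles daughter strands, at 6.67 ± 0.634 FPKM in NAC and 3.40 ± 0.458 FPKM in Control (limma adjusted p = 0.00758), and Pold4, a small subunit of polymerase delta, at 43.7 ± 1.56 and 34.8 ± 1.60 FPKM (limma adjusted p = 0.0133). The Pold4 call was lost without NAC 1, Control 1 or Control 3 (0.30 to 0.31).

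Among 10 other chromatin genes (median 0.14) 2 rose, against 6.08% of all tested genes. H2az1, a histone variant gene listed under its older name H2afz, averaged 109.8 ± 3.98 FPKM in NAC and 89.3 ± 1.00 FPKM in Control (limma adjusted p = 0.00778), a call lost with library totals (0.12). Lmnb1, which encodes a nuclear lamin, averaged 6.34 ± 0.585 FPKM in NAC and 4.29 ± 0.209 FPKM in Control (limma adjusted p = 0.0190). Leaving out NAC 1, NAC 2, NAC 3, Control 1 or Control 3 ended that call (0.41 to 0.52). None of 14 other deoxynucleotide and folate genes (median 0.044) and none of 11 checkpoint and damage response genes (median 0.042) was called by limma (8.80% of all tested genes). An unadjusted p under 0.05 was reached by 3 of the 14 and 2 of the 11, all with positive log2 fold changes. Of all tested genes 26.3% reached it, and 14.4% in that direction. The most abundant genes of both lists, the nucleoside diphosphate kinases Nme2 and Nme1 and the repair and checkpoint genes Rad9a and Msh6, had log2 fold changes of 0.0075, 0.12, 0.042 and -0.013.

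Purine and pyrimidine synthesis, which feeds ribonucleotide reductase, held the calls in the other direction. Of 16 genes none rose (6.08% of all tested genes) and 2 fell (2.72% of all), with a median log2 fold change of -0.11. The NAC values lay below all Control values in 8 of the 16, against 15.9% of all tested genes, and above them in 2, against 16.7%. The log2 fold change was above 0 in 6 of the 16. Gmps, which makes GMP, averaged 15.96 ± 0.582 FPKM in NAC and 19.4 ± 1.15 FPKM in Control (SD, n = 3 each; -0.27 ± 0.0573, SE, limma adjusted p = 0.0368). Atic, which completes inosine monophosphate, averaged 20.6 ± 1.35 FPKM in NAC and 24.99 ± 1.28 FPKM in Control (-0.27 ± 0.0634, SE, limma adjusted p = 0.0490). The Gmps call was lost when any 1 library was left out (-0.30 to -0.22). The Atic call was lost without NAC 1, NAC 2, NAC 3, Control 1 or Control 3 (-0.31 to -0.22), and also with median-of-ratios rescaling and quantile normalization. Neither call held when the filter or the trend was dropped.

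Genes of G2 and mitosis held 8 further calls. Of 11 tested, 8 rose and none fell (median 0.60), and all 11 had NAC values above all Control values. Of all tested genes 6.08% rose, 2.72% fell and 16.7% had NAC values above all Control values. Cdk1, the mitotic kinase, averaged 22.0 ± 0.785 FPKM in NAC and 12.2 ± 1.54 FPKM in Control (SD, n = 3 each; limma adjusted p = 0.00391), and Mki67, the proliferation antigen, 3.60 ± 0.201 and 2.04 ± 0.321 FPKM (limma adjusted p = 0.0214). Birc5 (survivin) averaged 4.59 ± 0.437 FPKM in NAC and 2.29 ± 0.392 FPKM in Control (limma adjusted p = 0.0124), and Ccnb1 (cyclin B1) 5.44 ± 0.499 and 2.54 ± 0.911 FPKM (limma adjusted p = 0.0310). The calls were lost for Mki67 without NAC 1, NAC 2, NAC 3 or Control 1 (0.51 to 0.64), for Ccnb1 without NAC 1, NAC 2, NAC 3 or Control 1 (0.83 to 0.94) and for Birc5 without NAC 1 (0.76). Of 16 E2F and pocket protein genes 1 rose and none fell (median 0.059). This was Mybl2, an E2F target that encodes B-MYB, at 2.79 ± 0.156 FPKM in NAC and 1.36 ± 0.197 FPKM in Control (limma adjusted p = 0.0141), with the call lost without NAC 1, NAC 2, NAC 3 or Control 1 (0.67 to 0.72). The difference in the share of calls between these lists and the 40 replication genes was not tested.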

How the data were processed

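The 40 genes, their roles and the other gene lists were chosen with earlier results of these data known. Per the labels' protocols, total RNA came from an RNeasy preparation and SMARTer mRNA-Seq chemistry gave the libraries. FPKM values for 33300 rows were deposited by the authors. Which aligner, counter and strand setting made them is not stated, so overlapping genes cannot be told apart. The mouse builds GRCm38 and mm10 are named per the submitters' processing notes, although the identifiers are those of rat. Columns N1 to N3 stand for Control here by elimination, the others being headed NAC.

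Read counts were recovered from FPKM and gene length, and 100% of values came out whole within 0.01. The total by which the authors divided was 0.916 ± 0.00812 of the summed reads in NAC and 1.03 ± 0.0122 in Control (SD, n = 3 each), by a method that no source names. Genes averaging 1 FPKM or more were tested as log2(FPKM + 1) with limma 3.58.1 in R 4.3.3 (two-sided, with a mean-variance trend and no covariate). An adjusted p under 0.05 was the threshold. The fit was tested on simulated data. It called 11 of 48 genes changed by 1.25 times, 27 of 48 by 1.5 times, 39 of 45 by 2 times and 45 of 48 by 4 times. Among 12438 unchanged genes it called 8. Small changes can therefore go uncalled. Read numbers speak only of counting error, and the added 1 understates changes of low genes. No replicate pair agreed within counting noise (3.46 to 8.71 for chi-square over its degrees of freedom), but that spread may still be technical. Each library counted as 1 sample.

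All genes that were called or whose groups did not overlap are given per library, and from each other list up to 4 called genes with the lowest adjusted p, or the 2 most abundant, besides Mki67 and Top2a. Dna2, Chek1 and Pecam1 were not analysed here, and H2az1 was found by its older name. Alternatives changed the pseudocount, filter, scaling, variance model, threshold, replicate block, gene biotypes and libraries. Tables and figures used Python 3.11.15 with pandas 2.3.3 and matplotlib 3.10.9.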

Additional observations from a re-analysis of the deposited data

How the results depend on the processing

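Rrm2 and Tk1 were called in every alternative run. The number of the 36 tested genes called was 2 with an adjusted p under 0.01 or with the replicate number as a block. It was 7 with limma voom on recovered reads and 2 to 3 when 1 library was left out, against 4 as reported. All genes called numbered 1120 of 12733 tested. They numbered 270 at an adjusted p under 0.01, 576 with the replicate block and 1564 with limma voom. With library totals they numbered 4189, and with 1 library left out 315 to 1206. Library totals moved the split to 467 higher and 3722 lower (11.1% higher) and quantile normalization to 567 and 408 (58.2%), against 774 and 346 (69.1%). The other lists, with 16 calls among 106 tested (14 higher, 2 lower), gave 10 of 124 without a filter and 10 of 65 at a mean FPKM of at least 5. Over all genes those runs called 756 of 19944 and 1188 of 8783. With library totals the other lists gave 35 calls, 15 higher and 20 lower. They gave 7 with the replicate block, 3 at an adjusted p under 0.01 and 3 to 16 with 1 library left out. Leaving out any library but Control 2 lowered the counts of all genes and of the other lists by over 1.5 times. The median log2 fold change of the 36 genes (0.13) was 0.17 with a pseudocount of 0.1, 0.16 without a filter, 0.11 at a mean of at least 5, -0.0040 with library totals, 0.18 with voom and 0.14 to 0.16 with 1 library left out.

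With library totals the log2 fold changes of uncalled genes turned negative in Mcm2 (-0.057), Mcm4 (-0.048), Mcm7 (-0.10), Gins1 (-0.099), Gins2 (-0.098), Prim1 (-0.038), Prim2 (-0.032), Pold1 (-0.017), Pold2 (-0.066), Pcna (-0.12), Rfc2 (-0.063), Tyms (-0.071), Dut (-0.020), Slbp (-0.10), Nme1 (-0.047), Nme2 (-0.17) and Rad9a (-0.12). Quantile normalization turned Gins1 (-0.013) and Nme2 (-0.14). Leaving out 1 library spanned 0 in Gins1 (-0.081 to 0.14), Lig1 (-0.16 to 0.070), Mcm7 (-0.022 to 0.098), Msh6 (-0.030 to 0.022), Nme2 (-0.045 to 0.047), Pcna (-0.027 to 0.13), Rad9a (-0.038 to 0.13), Rfc2 (-0.013 to 0.23), Rfc3 (-0.052 to 0.0024), Rfc4 (-0.090 to 0.065) and Tyms (-0.053 to 0.21). The cause was not tested. Libraries with the same number did not deviate together (correlations of 0.063, 0.059 and -0.050), so the numbers were not treated as pairs. Genes near 1 FPKM rest on as few as 15 reads per library, which limits Orc1, Pole2, Chaf1b and Lig1.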
